A study of Homo sapiens with 4 samples.

Results

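The annexins examined here are 9 genes, ANXA1, ANXA2, ANXA3, ANXA4, ANXA5, ANXA6, ANXA7, ANXA10 and ANXA11, of the 15037 genes in the count table. They were taken by symbol, and the family was chosen by the fold change of ANXA10, which was among the largest increases after PSME4 knockdown. The table lists 4 further annexin protein genes (ANXA8, ANXA8L1, ANXA9 and ANXA13) and 3 pseudogenes of ANXA2, which serve as a comparison. Libraries were made from polyadenylated RNA of A549, a cell line derived from a human lung carcinoma, epithelial in type and grown in DMEM. In PSME4 KD (2 libraries) the knockdown was aimed at PSME4, which encodes the proteasome activator PA200. In control KD (2 libraries) it was aimed at RFP, per the labels. The labels do not say how the knockdown was done, how long it lasted or whether cells were cloned. Whether replicate libraries stem from separate cultures is not stated, so the p-values reflect library spread alone, and that spread may be technical.

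Annexins bind membranes rich in acidic phospholipids when calcium rises, through a core of repeated helical domains that most members share. Their N-terminal tails differ and carry the sites for partners such as S100 proteins, so that the family takes part in membrane repair, vesicle traffic, cortical actin anchoring and blood clotting at the cell surface. Epithelial cells of the lung carry much annexin A1 and A2, while annexin A10 is best known from the gastric mucosa.

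Depth was 14845701 and 15208588 counts per library in PSME4 KD, against 11766371 and 11769392 in control KD. Levels are CPM, the counts relative to library size as scaled by TMM, which corrects for library composition. A positive fold change means a higher level in PSME4 KD. Changes were tested with edgeR over 13497 genes, at a Benjamini-Hochberg adjusted p under 0.05. PSME4 itself stood at 75.3 and 85.1 CPM in PSME4 KD and at 158 and 180 CPM in control KD (log2 fold change −1.08, SE 0.20, adjusted p = 0.000855, edgeR). Its log2 fold change was −0.99 without PSME4 KD 1, −1.17 without control KD 1 and −0.97 without control KD 2, with an adjusted p of 0.146, 0.0522 and 0.0599 in these smaller fits. Of 12 epithelial markers 10 were in the table, at unequal levels. Keratin 18 (KRT18), keratin 8, keratin 7 and E-cadherin (CDH1) were the most abundant in every library, while EPCAM stood at 6.76 to 7.88 CPM in PSME4 KD and 5.42 to 6.14 CPM in control KD, KRT19 at 1.71 to 3.15 CPM in PSME4 KD and 2.94 to 3.78 CPM in control KD, and CLDN4, CLDN7 and ESRP1 near or below 1 CPM in every library. KRT18 had 4119 and 3090 CPM in PSME4 KD, against 3570 and 2820 CPM in control KD, and CDH1 213 and 273 CPM in PSME4 KD, against 201 and 229 CPM in control KD. The epithelial transcription factor ELF3 was the 1 marker of 8 tested that passed, at 149.6 and 120.1 CPM in PSME4 KD, against 77.4 and 73.2 CPM in control KD (log2 fold change 0.84, SE 0.20, adjusted p = 0.00762, edgeR). The lung epithelial markers NKX2-1 and SFTPC had no row in the table. Of the fixed markers of other cells, 4 of 9 for fibroblasts, 2 of 8 for endothelium and 4 of 8 for leukocytes were in the table. Their summed levels were 29.8 to 33.5 CPM, 12.6 to 14.7 CPM and 41.2 to 41.8 CPM in PSME4 KD, against 23.5 to 24.9 CPM, 14.6 to 16.2 CPM and 30.9 to 35.0 CPM in control KD. Within the fibroblast list COL1A1 rose (0.73, SE 0.24, adjusted p = 0.0479, edgeR) and PDGFRA fell (−1.34, SE 0.43, adjusted p = 0.0453, edgeR), so the sum does not stand for its members. The defining leukocyte marker PTPRC and the endothelial markers PECAM1 and VWF had no row in the table. Any part of these marker levels in the results below was not tested.

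RefSeq places ANXA10 on the plus strand of chromosome 4, at positions 168092537 to 168187736 of GRCh38.p14, the build of all positions given here, and the promoter table holds 1 start for it. The windows below run from 250 bases before to 50 bases after the RefSeq start (50 bases of each window are thus transcribed), 5′ to 3′ on the strand of the gene, with sequence from RefSeq. They are shown because ANXA10 is the member whose mRNA differed most between groups and ANXA1 and ANXA2 are the most abundant members. Capitals mark TATAAA, a form of the TATA box, which was searched on both strands, with no other motif searched.
ANXA10, chr4:168092287-168092586, plus strand: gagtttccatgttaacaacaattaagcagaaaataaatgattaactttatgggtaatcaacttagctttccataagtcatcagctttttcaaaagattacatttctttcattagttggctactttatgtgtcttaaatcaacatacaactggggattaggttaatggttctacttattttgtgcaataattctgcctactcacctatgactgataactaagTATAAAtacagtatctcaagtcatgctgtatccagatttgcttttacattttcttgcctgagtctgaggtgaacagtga
ANXA1, chr9:73151615-73151914, plus strand: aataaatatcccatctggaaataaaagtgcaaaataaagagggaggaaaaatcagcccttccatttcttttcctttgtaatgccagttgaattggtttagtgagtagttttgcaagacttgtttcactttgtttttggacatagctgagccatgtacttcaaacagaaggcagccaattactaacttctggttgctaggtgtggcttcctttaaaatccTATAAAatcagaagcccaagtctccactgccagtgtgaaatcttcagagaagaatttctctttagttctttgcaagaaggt
ANXA2, chr15:60397937-60398236, minus strand: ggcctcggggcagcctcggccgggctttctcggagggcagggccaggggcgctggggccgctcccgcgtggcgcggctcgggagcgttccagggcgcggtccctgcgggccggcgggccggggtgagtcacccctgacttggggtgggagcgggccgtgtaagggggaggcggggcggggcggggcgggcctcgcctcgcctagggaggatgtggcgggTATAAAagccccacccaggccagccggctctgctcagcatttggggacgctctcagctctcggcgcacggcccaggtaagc

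The 9 members matched 13 RefSeq promoter windows, since ANXA4, ANXA6 and ANXA11 have more than one start. The TATAAA motif begins 29 bases before the start of ANXA10 and 31 bases before those of ANXA1 and ANXA2. It was found in 4 of the 13 windows, also in 1 of ANXA11, and in 11.5% of all 35116 RefSeq windows of 300 bases. The ANXA10 and ANXA1 windows hold 0 CpG dinucleotides, as 3.96% of all windows do, while those of the other members hold 7 to 44. The GC content was 32.7% in the ANXA10 window and 37.7% in that of ANXA1, against a median of 58.7% over all windows. A match is a description of these letters and not a measured binding site. ANXA1, which shares the motif and the lack of CpG with ANXA10, had a log2 fold change of −0.21, against 3.67 for ANXA10. Any part of the promoter sequence in either value was not tested.

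ANXA10, an annexin that lacks most of the calcium-binding sites of its relatives, was scarce in control KD cells and higher in PSME4 KD cells. Its mean CPM was the lowest of the members in both groups. There were 281 and 224 ANXA10 counts in PSME4 KD 1 and 2, against 19 and 11 counts in control KD 1 and 2. Scaled for depth, these were 18.5 and 14.7 CPM in PSME4 KD, against 1.64 and 0.946 CPM in control KD. Both PSME4 KD libraries lay far above both control KD libraries. The exact 95% Poisson intervals, which cover counting error only, were 249 to 316 and 196 to 255 counts in PSME4 KD, against 11.4 to 29.7 and 5.49 to 19.7 counts in control KD. The mean was 16.6 ± 2.66 CPM in PSME4 KD and 1.29 ± 0.494 CPM in control KD (SD, n = 2 each), a log2 fold change of 3.67 (SE 0.34, 95% interval 2.98 to 4.36), or 12.7-fold. This is the third largest increase by log2 fold change over all tested genes. Because the gene was chosen for this change, the value is a description and no test is attached to it. In bulk RNA, more cells that express the gene and more RNA per cell cannot be told apart. The fold change was 3.33 without control KD 2, 3.50 without PSME4 KD 1, 3.85 without PSME4 KD 2 and 4.12 without control KD 1. Per kilobase of its 1417-base transcript, ANXA10 came to 11.7 ± 1.88 CPM in PSME4 KD and 0.914 ± 0.348 CPM in control KD (SD, n = 2 each). In PSME4 KD it overlapped ANXA11 only with the longest principal transcript of ANXA11 (11.3 and 13.4 CPM per kilobase in libraries 1 and 2). With the shortest one ANXA11 stood at 31.2 and 36.7, and ANXA10 lay below it. In control KD ANXA10 lay below all other members on this scale.

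**Figure D1:**
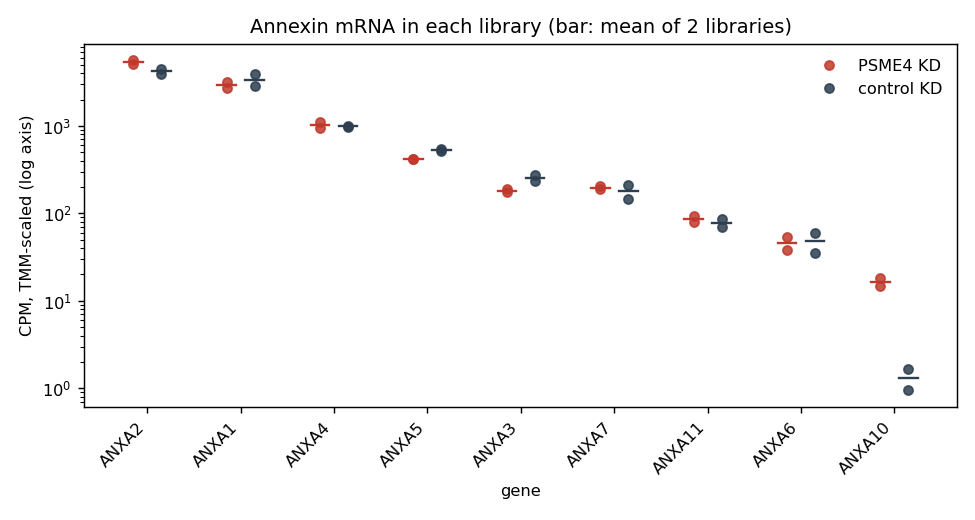
Level of each member in CPM on a log axis, with 1 point per library (red, PSME4 KD; dark blue, control KD) and a bar at the mean of 2 libraries. ANXA10 stands at 14.7 to 18.5 CPM in PSME4 KD and at 0.946 to 1.64 CPM in control KD, while the other 8 members lie close together in the 2 groups.

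Since no strand setting is given for the counting, reads of an antisense RNA may have been counted with the gene. GENCODE 29 places an antisense RNA, AC116634.1, across part of ANXA10, and it has no row in the table. Whole gene spans were compared, not exons. Whether reads of AC116634.1 are among the ANXA10 counts is thus not known. No 50-base window of the ANXA10 transcript occurs in a transcript of another member (0 of 1368 windows for each). The neighbouring genes of the table on chromosome 4 did not pass the test. The proteoglycan gene SPOCK3 and the protease gene TLL1 lie before it, with log2 fold changes of −0.13 (SE 0.38) and 0.16 (SE 0.53). These 2 genes are not close to it, as they end at positions 167234945 and 166104457. The helicase genes DDX60 and DDX60L lie after ANXA10, at −0.16 (SE 0.26) and −0.21 (SE 0.21). For all 4 neighbours the adjusted p lay between 0.558 and 0.887 by edgeR's quasi-likelihood test. TLL1 rested on 25 counts in PSME4 KD and 17 in control KD.

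Likeness to ANXA10 was sought among genes whose CPM averaged 5 or more across the 4 libraries. The pattern most like that of ANXA10 was that of GRIK2, a kainate-type glutamate receptor subunit. Likeness was the Euclidean distance between the deviations of 4 libraries from the gene's own mean, on the log2 CPM scale, and was 1.01 for GRIK2. Next came OLFML3, a secreted glycoprotein (1.08), LAYN, a hyaluronan receptor (1.36), GALNTL6, a glycosyltransferase-like gene (1.37), and MT1F, a metallothionein (1.43). Their log2 fold changes were 4.27, 2.60, 2.42, 2.51 and 2.20. Large increases follow from the search itself, since ANXA10 was chosen for its own increase. In control KD the 5 genes had mean levels of 1.51, 3.28, 1.60, 2.07 and 2.33 CPM. They thus reached the minimum of 5 CPM only through PSME4 KD. With 4 libraries in 2 groups, such likeness is a description only. GALNTL6 lies on chromosome 4, as ANXA10 does, from position 171813404.

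None of the other 8 annexins passed the test, against 10.6% of all tested genes. With ANXA10, 1 of 9 members passed in edgeR, and likewise in DESeq2 and in limma voom, where 10.3% of genes passed by each, and since ANXA10 was the ground for choosing the family nothing is read from that count. Among the 8, ANXA3 alone had an unadjusted p under 0.05, as 3530 of all 13497 genes had. Fold changes lay above 0 for 5, ANXA10 included, and below 0 for 4 of the 9 members on the log2 scale. The median over the 8 was 0.0047, beside −0.0021 over all tested genes. The 9 members together took up 1.03% and 1.05% of the counts in PSME4 KD, against 0.926% and 0.989% in control KD. Both PSME4 KD shares were the higher ones, and the difference was not tested. PSME4 KD and control KD libraries were fully apart for 4 of the 9 members, ANXA2, ANXA3, ANXA5 and ANXA10. Without ANXA10, which was chosen for its change, they were apart for 3 of 8, beside 55.0% of all tested genes.

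**Figure D2:**
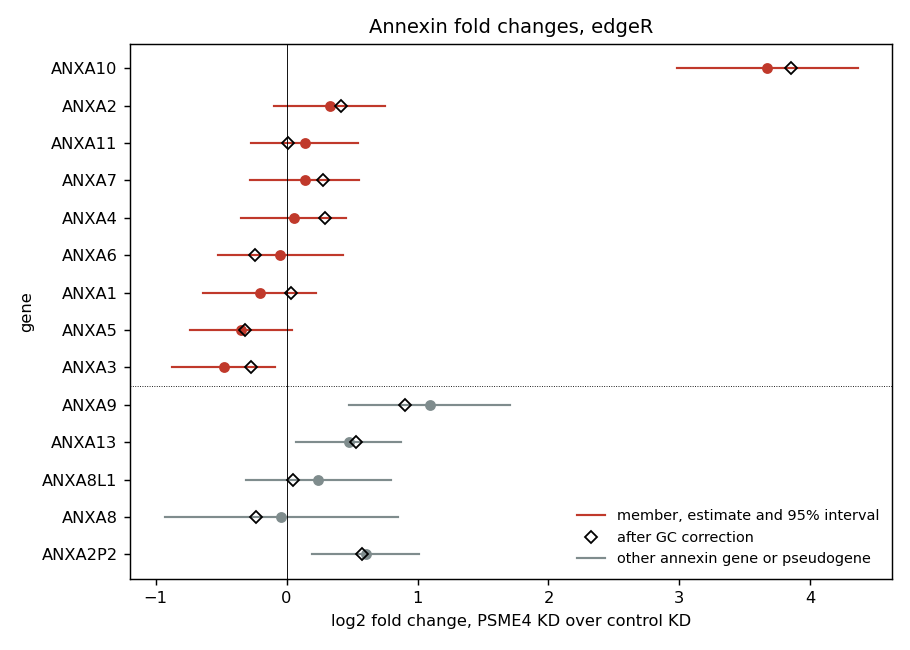
Log2 fold change (PSME4 KD over control KD) of each member in red, of other annexin genes and the pseudogene ANXA2P2 in grey, with 95% intervals from edgeR, and open diamonds for the estimate after correction for GC content. The interval of ANXA10 (2.98 to 4.36) is a description, since the family was chosen by its fold change. The interval of ANXA3 ends just below 0.

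ANXA2 and ANXA1 made up most of the annexin mRNA, together 80.1% and 81.5% of the member counts in PSME4 KD and 78.7% and 78.6% in control KD. ANXA2, which pairs with S100A10 at the inner face of the plasma membrane and binds plasminogen at its outer face, lies on chromosome 15 (60347151 to 60397986, minus strand). It had 5069 and 5599 CPM in PSME4 KD, against 4527 and 3969 CPM in control KD. Both PSME4 KD values were the higher ones, but the log2 fold change of 0.33 (SE 0.21, 95% interval −0.09 to 0.75) did not pass (adjusted p = 0.321, edgeR). ANXA1, which curbs phospholipase A2 and signals through formyl peptide receptors, lies on chromosome 9 (73151865 to 73170393, plus strand). It had 3178 and 2706 CPM in PSME4 KD, against 2887 and 3896 CPM in control KD. The groups overlapped, and control KD 1 and 2 differed by more than the group means. Its log2 fold change was −0.21 (SE 0.21, 95% interval −0.64 to 0.23, adjusted p = 0.576, edgeR), and it changed sign to 0.03 without control KD 2.

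ANXA2 has processed pseudogenes that can take up its reads. The transcript of ANXA2P2 aligned to that of ANXA2 at 98.4% identity over 1020 bases, and 59.2% of its 50-base windows occur unchanged in an ANXA2 transcript. ANXA2P2 had 81.1 and 87.0 CPM in PSME4 KD, against 60.7 and 49.8 CPM in control KD, a log2 fold change of 0.61 (SE 0.20) and an adjusted p of 0.0494 (edgeR). That call sits at the threshold and was lost without any one library (0.48 to 0.75, adjusted p 0.105 to 0.373), without a filter on counts (adjusted p = 0.0530) and with the replicate number as a block (0.0504). The authors' deposited table gives it a log2 fold change of −0.61 for control over PSME4 KD with an adjusted p of 0.0509. Its counts were 1.60% and 1.55% of those of ANXA2 in PSME4 KD, against 1.34% and 1.25% in control KD. ANXA2P1 (93.8% identity) and ANXA2P3 (92.3%) had 37 counts or fewer in every library, and ANXA2P3 was too low to be tested.

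ANXA3, ANXA5 and ANXA4 formed the middle of the range. ANXA3, known from neutrophil granules and from carcinoma cells, lies on chromosome 4 (78551770 to 78610447, plus strand). It had 190 and 174 CPM in PSME4 KD, against 235 and 272 CPM in control KD. Both PSME4 KD libraries lay below both control KD libraries. The log2 fold change was −0.48 (SE 0.19, 95% interval −0.87 to −0.09), and it missed the threshold (adjusted p = 0.106, edgeR; 0.0896 to 0.641 over all alternatives). It was −0.27 after correction for GC content.

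ANXA5, the phosphatidylserine binder used to stain dying cells, lies on chromosome 4 (121667946 to 121696980, minus strand). It had 422 and 416 CPM in PSME4 KD, against 523 and 542 CPM in control KD. Libraries of a group lay close together and the groups did not overlap. The log2 fold change of −0.35 (SE 0.19, 95% interval −0.74 to 0.05) did not pass (adjusted p = 0.254, edgeR). It stayed between −0.37 and −0.30 in every alternative. ANXA4, abundant in secretory epithelia, lies on chromosome 2 (69643808 to 69827112, plus strand). It had 1097 and 950 CPM in PSME4 KD, against 960 and 1010 CPM in control KD. These values overlapped, with a log2 fold change of 0.06 (SE 0.20, 95% interval −0.34 to 0.46, adjusted p = 0.894, edgeR), and −0.05 without PSME4 KD 1. GENCODE 29 places AAK1 on the other strand across part of ANXA4, so without strand their reads could be shared. ANXA2 and ANXA7 also overlap a gene on the other strand (AC087385.1 and AL512656.1), neither with a row in the table.

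ANXA7, ANXA11 and ANXA6 were lower in CPM than ANXA4 and ANXA5. ANXA7, or synexin, which promotes the fusion of secretory vesicles, lies on chromosome 10 (73375101 to 73414058, minus strand). It had 190 and 203 CPM in PSME4 KD, against 146 and 211 CPM in control KD. The PSME4 KD values lay inside the range of control KD. The log2 fold change was 0.14 (SE 0.20, 95% interval −0.28 to 0.55, adjusted p = 0.712, edgeR), and −0.10 without control KD 1. ANXA11, which tethers RNA granules to lysosomes, lies on the same chromosome (80150889 to 80205808, minus strand). It had 79.0 and 93.0 CPM in PSME4 KD, against 85.5 and 70.6 CPM in control KD. The groups overlapped, with a log2 fold change of 0.14 (SE 0.20, 95% interval −0.27 to 0.55, adjusted p = 0.702, edgeR).

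ANXA6, whose annexin core is duplicated and which acts on endosomes and cholesterol traffic, lies on chromosome 5 (151100706 to 151157779, minus strand). It had 54.3 and 38.1 CPM in PSME4 KD, against 60.0 and 35.4 CPM in control KD. In both groups replicate 1 was the higher library, and the spread inside each group exceeded the difference between groups. The log2 fold change was −0.05 (SE 0.23, 95% interval −0.52 to 0.43, adjusted p = 0.928, edgeR). It was 0.38 without control KD 1, 0.21 without PSME4 KD 2, −0.32 with PSME4 KD 1 left out and −0.37 with control KD 2 left out.

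**Figure D3:**
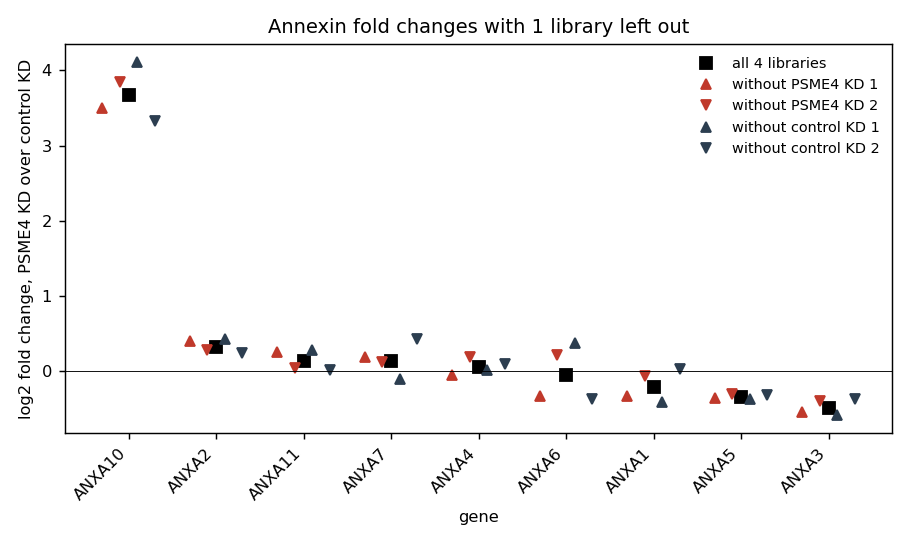
Log2 fold change of each member with all 4 libraries (black squares) and with 1 library left out (triangles, red for a PSME4 KD library and dark blue for a control KD library). ANXA10 stays between 3.33 and 4.12, and the signs of ANXA1, ANXA4, ANXA6 and ANXA7 depend on which library is left out.

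In 5 of the 9 members the libraries of 1 group differed by more than the group means. These were ANXA1, ANXA4, ANXA6, ANXA7 and ANXA11. The share of all tested genes with such a spread was not computed, so no trait of annexins is read from this count. Control KD 2 over control KD 1 was 0.43 for ANXA1 and 0.53 for ANXA7 on the log2 scale, at a transcript GC content of 39.3% and 42.8%, and −0.76 for ANXA6 and −0.28 for ANXA11, at 56.0% and 52.3%. Across the 13154 genes with a known GC content, which do not count as replicates, Spearman's rho of GC content was −0.49 with this difference and 0.40 with the fold change. After correction for GC content the fold change was 0.04 for ANXA1, 0.29 for ANXA4 and −0.24 for ANXA6, and the part of GC content in these values was not tested further. ANXA10, at 40.9% GC, was at 3.85 after it, and none of the other 8 members passed (adjusted p 0.202 to 0.975, edgeR).

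Per kilobase of transcript, the order of the members by group mean was the same in both groups. This held with the longest and with the shortest principal transcripts. ANXA2 led with 3182 ± 224 CPM per kilobase in PSME4 KD and 2535 ± 235 in control KD, followed by ANXA1 with 1332 ± 151 in PSME4 KD and 1535 ± 323 in control KD (SD, n = 2 each). ANXA4 came next at 366 ± 37.1 in PSME4 KD and 352 ± 12.6 in control KD, and ANXA5 at 238 ± 2.30 in PSME4 KD and 302 ± 7.51 in control KD. Then followed ANXA3 at 110 ± 6.75 in PSME4 KD and 153 ± 15.6 in control KD, and ANXA7 at 80.1 ± 3.75 in PSME4 KD and 72.8 ± 18.6 in control KD. With these longest transcripts the neighbours did not overlap between libraries within either group. ANXA1 and ANXA2 also have shorter principal transcripts, and with the shortest of both ANXA2 still lay above ANXA1. With the shortest of ANXA1 alone (1509 bases), ANXA1 stood at 2582 in control KD 2, above ANXA2 at 2368. ANXA6 (17.8 ± 4.43 in PSME4 KD and 18.4 ± 6.69 in control KD) and ANXA11 (12.4 ± 1.42 in PSME4 KD and 11.2 ± 1.51 in control KD) cannot be ordered, since ANXA11 has principal transcripts of 2534 to 6965 bases and stands at 34.0 in PSME4 KD and 30.8 in control KD with the shortest of these.

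Of the 4 annexin genes outside the chosen 9, 1 passed, where 10.6% of all tested genes did. ANXA9, another member without working calcium sites, had 9.52 and 13.3 CPM in PSME4 KD, against 6.83 and 3.87 CPM in control KD. Both PSME4 KD libraries were the higher ones, by a log2 fold change of 1.09 (SE 0.30, adjusted p = 0.0196, edgeR). The authors' deposited table gives −1.10 for control over PSME4 KD with an adjusted p of 0.0454. The call was lost without any one library, with values of 0.75 without control KD 2, 0.86 without PSME4 KD 2, 1.32 without PSME4 KD 1 and 1.56 without control KD 1 (adjusted p 0.0928 to 0.342, edgeR).

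ANXA13, found mainly in intestinal and kidney epithelium, had 99.6 and 93.6 CPM in PSME4 KD, against 67.5 and 71.6 CPM in control KD. The groups did not overlap, and the log2 fold change of 0.47 (SE 0.19) missed the threshold (adjusted p = 0.117, edgeR), which it passed after correction for GC content (0.53, adjusted p = 0.0454). ANXA8 and ANXA8L1 are near-identical copies, with 99.4% identity over 2174 bases, so their counts are uncertain. ANXA8 was at 1.25 and 1.77 CPM in PSME4 KD, against 1.56 and 1.55 CPM in control KD, and ANXA8L1 at 8.34 and 9.51 CPM in PSME4 KD, against 7.96 and 7.14 CPM in control KD. Neither passed (adjusted p 0.968 and 0.613, edgeR). The annexin A2 receptor gene ANXA2R, which is no annexin, was at 2.96 and 2.95 CPM in PSME4 KD, against 3.46 and 2.67 CPM in control KD (adjusted p = 0.948, edgeR).

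S100 proteins are small calcium-binding proteins, several of which dock on annexin tails. Of 21 genes in the list 10 were in the table and tested, 9 S100 genes and S100PBP, a binding protein of S100P (−0.06). Of these 2 rose, none fell and 8 did not pass, where 616 of all tested genes (4.56%) were called higher and 810 lower. The median log2 fold change was 0.18, or 0.32 for the 9 S100 genes alone, a split made after seeing the values, beside −0.0021 over all genes. S100A6, a partner of ANXA11, had 1500 and 957 CPM in PSME4 KD, against 620 and 655 CPM in control KD (log2 fold change 0.95, SE 0.21, adjusted p = 0.00548, edgeR). S100A4, a partner of ANXA2, had 638 and 753 CPM in PSME4 KD, against 503 and 333 CPM in control KD (0.73, SE 0.21, adjusted p = 0.0247, edgeR). Both were higher in each PSME4 KD library than in either control KD library. S100A10, the main partner of ANXA2, had 1067 and 823 CPM in PSME4 KD, against 705 and 682 CPM in control KD, and did not pass (0.45, SE 0.20, adjusted p = 0.149, edgeR). Neither S100A13 (0.36, SE 0.21) nor S100A11 (0.32, SE 0.20), a partner of ANXA1, passed. After correction for GC content S100A6 was at 0.69 (adjusted p = 0.0454, edgeR), S100A10 at 0.23, S100A13 at 0.18 and S100A11 at 0.14. Each lay below its uncorrected value, and the part of GC content was not tested further. S100A6 was at 0.59 without PSME4 KD 1, 0.91 without control KD 1 and 0.99 without control KD 2, past the threshold in none of these. S100A4 lost its call without any one library (0.47 to 1.06) and after correction for GC content (0.55, adjusted p = 0.0683, edgeR).

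Penta-EF-hand proteins include sorcin and PDCD6, which bind the tails of ANXA7 and ANXA11, and the calpain proteases. The list of 8 tested genes holds 7 of them and PDCD6IP, a binding partner of PDCD6 without that domain (−0.18). Of the 8, 1 fell, none rose and 7 did not pass, where 10.6% of all tested genes passed in either direction. The median log2 fold change was 0.01, and 0.12 without PDCD6IP, left out after seeing the values. The sorcin gene SRI had 125 and 104 CPM in PSME4 KD, against 182 and 165 CPM in control KD (−0.60, SE 0.19, adjusted p = 0.0459, edgeR). Its call was lost without any one library (−0.73 to −0.45), with library size as the only scaling (adjusted p = 0.0528), without a filter on counts (0.0503) and after correction for GC content (−0.35, 0.217). The calpain subunit CAPN2 was just outside the threshold (−0.57, SE 0.19, adjusted p = 0.0531, edgeR) and inside it by DESeq2 (0.0345), by limma voom (0.0498), with at least 50 counts in 2 libraries (0.0395) and with the replicate block (0.04996). PDCD6, CAPN1 and PEF1 had values of 0.53 (SE 0.20), 0.51 (SE 0.24) and 0.36 (SE 0.21) and did not pass.

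Of 15 tested genes of plasminogen activation and clotting at the cell surface 2 fell, none rose and 13 did not pass, beside 10.6% of all tested genes called, and the median was 0.17. F5, the coagulation cofactor V, had 21.4 and 23.3 CPM in PSME4 KD, against 51.1 and 49.9 CPM in control KD (−1.18, SE 0.21, adjusted p = 0.000685, edgeR). SERPINE2, an inhibitor of thrombin and plasminogen activators, had 219 and 236 CPM in PSME4 KD, against 430 and 436 CPM in control KD (−0.93, SE 0.19, adjusted p = 0.00265, edgeR). Both changes were far larger than the gap between libraries of a group. F5 lost its call without PSME4 KD 1 (−1.11), control KD 1 (−1.16) or control KD 2 (−1.19), and SERPINE2 without any one library (−0.96 to −0.87). The endocytic receptor LRP1 (0.80, SE 0.28), the tissue plasminogen activator PLAT (−0.73, SE 0.30), which binds ANXA2 with S100A10, and the protein C receptor PROCR (0.39, SE 0.19) did not pass. LRP1 was inside the threshold with library size as the only scaling (adjusted p = 0.0336), without a filter on counts (0.0480), with at least 50 counts in 2 libraries (0.0411) and with the replicate block (0.0339).

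Of 25 tested genes of plasma membrane repair 2 fell, none rose and 23 did not pass, beside 10.6% of all tested genes called, and the median was −0.03. The caveolin CAV2 had 220 and 203 CPM in PSME4 KD, against 375 and 313 CPM in control KD (−0.70, SE 0.19, adjusted p = 0.0208, edgeR). VAMP7, a lysosomal SNARE protein, had 89.2 and 86.4 CPM in PSME4 KD, against 144 and 132 CPM in control KD (−0.65, SE 0.19, adjusted p = 0.0294, edgeR). Neither passed without any one library (−0.82 to −0.57 and −0.70 to −0.59) or after correction for GC content (−0.52 and −0.41). The acid sphingomyelinase SMPD1 (1.01, SE 0.35) and the ESCRT subunits CHMP1A (0.62, SE 0.27) and CHMP4A (−0.46, SE 0.22) did not pass. SMPD1 was inside the threshold with library size as the only scaling (adjusted p = 0.0448, edgeR) and with at least 50 counts in 2 libraries (0.0431).

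The list of other calcium and phospholipid binders holds mostly C2-domain proteins, and calcium binding was not checked for each. Of its 26 tested genes 2 fell, none rose and 24 did not pass, beside 10.6% of all tested genes called. The median was 0.07. The synaptotagmin SYT13 had 50.2 and 51.8 CPM in PSME4 KD, against 89.8 and 83.9 CPM in control KD (−0.77, SE 0.20, adjusted p = 0.0133, edgeR). RASA1, a brake on Ras and a partner of ANXA6, had 68.6 and 64.0 CPM in PSME4 KD, against 90.2 and 111 CPM in control KD (−0.60, SE 0.20, adjusted p = 0.0490, edgeR). Without any one library neither passed (−0.81 to −0.72 and −0.75 to −0.44), and RASA1 also missed by limma voom (adjusted p = 0.0511), with library size as the only scaling (0.0581), without a filter or with the replicate block (0.0530 each) and after correction for GC content (0.0639). The kinase PRKCD (0.66, SE 0.24), which passed with library size as the only scaling (adjusted p = 0.0483, edgeR), and the copines CPNE1 (0.47, SE 0.19) and CPNE8 (−0.52, SE 0.22) did not pass.

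**Figure D4:**
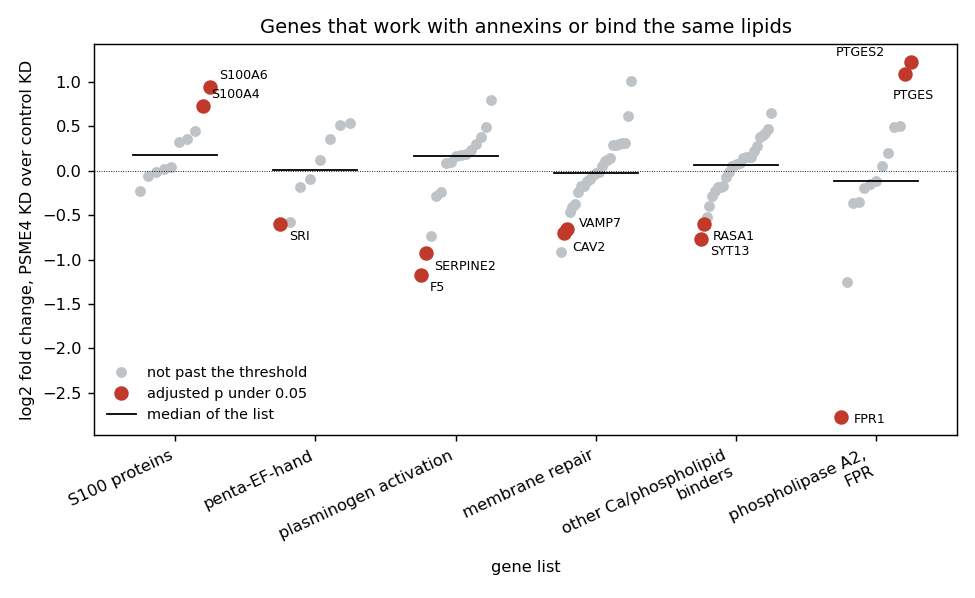
Log2 fold change (PSME4 KD over control KD) of each tested gene in 6 lists (S100PBP and PDCD6IP included), with called genes in red and named, other genes in grey and a bar at the median of the list. S100A6 and S100A4 are the called S100 genes at 0.95 and 0.73, and FPR1 lies lowest at −2.78.

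Of 13 tested genes of phospholipase A2, prostanoid synthesis and formyl peptide receptors, the pathway that ANXA1 restrains, 2 rose, 1 fell and 10 did not pass, and the median was −0.11. Of all tested genes 4.56% were called higher and 10.6% in either direction. The prostaglandin E synthase PTGES had 88.9 and 86.9 CPM in PSME4 KD, against 35.7 and 46.9 CPM in control KD (1.09, SE 0.21, adjusted p = 0.00113, edgeR). PTGES2, another prostaglandin E synthase gene, had 14.8 and 8.40 CPM in PSME4 KD, against 5.02 and 4.90 CPM in control KD (1.23, SE 0.30, adjusted p = 0.00981, edgeR). FPR1, a receptor for bacterial peptides and for ANXA1 peptides, had 2 and 6 counts in PSME4 KD, against 23 and 20 counts in control KD (−2.78, SE 0.57, adjusted p = 0.00267, edgeR). FPR1 was low in both groups, at 0.131 and 0.394 CPM in PSME4 KD and 1.99 and 1.72 CPM in control KD. FPR2 and FPR3, also in the list, were not among the tested genes. PTGES lost its call without PSME4 KD 1 (1.07) or control KD 1 (0.90), PTGES2 without PSME4 KD 1 (0.76), control KD 1 (1.24) or control KD 2 (1.22), and FPR1 without PSME4 KD 1 (−2.21), control KD 1 (−2.67) or control KD 2 (−2.87). The lipoxygenase ALOX5 (−1.25, SE 0.45), called after correction for GC content (adjusted p = 0.0369, edgeR), and the phospholipase PLAAT3 (0.50, SE 0.21) did not pass.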

How the data were processed

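The submitters' processing notes name cutadapt, STAR, DESeq2 and build hg38. They give no versions, and neither the tool that counted reads nor its use of strand is stated. The deposited table holds the authors' whole-number counts per gene and library. It also holds the authors' log2 fold change of control over PSME4 KD and their adjusted p-value, as deposited. A further 8 per-sample columns were not used. The largest count in a row was at least 6, so low rows had been removed before deposit.

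Fits used edgeR 4.0.16 under R 4.3.3 (filterByExpr, TMM, glmQLFit, glmQLFTest, group as the only term, Benjamini-Hochberg adjustment over 13497 genes), and tested on simulated data. Standard errors are the fold change divided by the root of the F statistic. Alternatives were DESeq2 1.42.0, limma 3.58.1 voom, other scalings and filters, a replicate block, each library left out, and a lowess correction (span 0.4) for GC content of the longest GENCODE 29 transcript, known for 97.5% of tested genes. Lengths per kilobase are of the longest principal coding transcript. Gene positions are from RefSeq on GRCh38.p14, the assembly of hg38.

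Members and lists were chosen with earlier results of these data known. Named genes are PSME4, all members, other annexin genes, the 5 smallest p-values of each list, the 2 nearest table genes on each side of ANXA10 and the 5 genes nearest to its pattern.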

Additional observations from a re-analysis of the deposited data

How the results depend on the processing

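The number of annexins called was 1 in every alternative, which is ANXA10, by which the family was chosen, so nothing is read from it. The number of genes called over the table was within 1.5 times of 1426 except with 1 library left out, when it was 43 to 281 (the lone library of a group is then taken to vary like the others). Library size as the only scaling gave 853 higher and 764 lower, against 616 and 810. With 1 library left out the lists gave 0 to 1 S100 genes, 0 to 1 plasminogen genes, 0 to 3 phospholipase A2 genes and 0 membrane repair, penta-EF-hand and other calcium and phospholipid binder genes. After correction for GC content 1 S100 gene, 0 membrane repair genes, 0 penta-EF-hand genes and 1 other binder passed. Penta-EF-hand genes called were 0 with library size only or no filter and 2 by DESeq2, by limma voom, with at least 50 counts in 2 libraries and with the replicate block. Other binders called were 1 by limma voom, with no filter and with the replicate block. Same-numbered libraries did not deviate together over genes (r = −0.04). With 2 libraries per group this cannot decide whether the numbers mark a pairing, and the labels do not say. The replicate block gave 1554 genes.

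Signs turned for values that had not passed. With 1 library left out the ranges were −0.41 to 0.034 for ANXA1, −0.0505 to 0.19 for ANXA4, −0.37 to 0.38 for ANXA6, −0.10 to 0.43 for ANXA7, −0.28 to 0.19 for ANXA8, −0.22 to 0.15 for ANXA2R, −1.78 to 0.82 for ANXA2P1, −0.0691 to 0.44 for TLL1, −0.57 to 0.23 for SPOCK3 and −0.32 to 0.0276 for DDX60. After correction for GC content ANXA1 was at 0.0356, SPOCK3 at 0.13, DDX60 at 0.0905 and DDX60L at 0.0446, and ANXA8 was at 0.0026 with library size only; beyond the libraries left out, the cause was not tested. ANXA10 rests on 30 counts in control KD, which limits the precision of its fold change.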
